A study of Homo sapiens with 4 samples.

Results

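The genes described here encode subunits of the oxidative phosphorylation complexes, measured in human stem cell cultures from which the ribosomes of the ATOH1 lineage were pulled down. They comprise every gene of the study's IP-against-input table, as far as it could be read, whose symbol begins as a subunit of complexes I to V does, assembly factors left out. There were 36 such genes among the 1998 readable genes of that table, and all 36 could be tied to transcripts in the quantified libraries. With them, 43806 genes and transcripts were tested, 1672 of them genes that could be tied in the same way. Adjusted p-values in the readable part of that table did not exceed 5.5e-05. The direction and the calls of these genes between IP and input are therefore a description and no independent evidence. Of a list of 83 nuclear subunit genes, the other 47 were not analysed here.

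Translating ribosome affinity purification (TRAP) recovers mRNA bound to ribosomes that carry a tagged protein. In the RUES2 human embryonic stem cell line, a lentiviral transgene placed EGFP fused to the ribosomal protein L10a under an enhancer of human ATOH1, the factor of the rhombic lip and of granule cell progenitors. All libraries came from the ATOH1-EGFP-L10a line at day in vitro 28. The cells had grown with puromycin and had received SB431542 and LDN-193189 on days 0 to 7, CHIR99021 on days 1 to 11, BMP7 on days 7 to 15, FGF2 on days 1 to 28 and BDNF on days 11 to 28. The 3 IP libraries were made from RNA pulled down with the GFP antibodies 19C8 and 19F7, and the input library was lysate RNA not pulled down. There was 1 input library, so each IP was set against the same values and the spread within the input is unknown. Clonal lines had been derived, and the tag marks cells in which that enhancer was active. The IPs are taken as separate differentiation experiments, as the study describes them. More cells of a type in the culture and more RNA per cell cannot be told apart in such bulk libraries.

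Total estimated counts ran from 34603230 to 37719839 among the IPs and were 41173019 for the input. The sample label and the file tag disagreed on which library was the input, and the library with the tag was used, since it alone returned the table's fold changes (36 of 36 genes, against 0 with each IP as input). In what follows, CPM are counts scaled to a common library size by TMM, and TPM are Salmon's abundances, which are also divided by transcript length. ATOH1 itself was at 26.1, 36.0 and 33.2 CPM in IP replicates 1, 2 and 3 and at 0.173 CPM in the input, where it rested on 7 reads. Markers could be measured only where the readable part of the study's table held them, so those measured had all been called by the study. Their directions and calls are a description and no check of the pull-down. Of 14 markers of granule cell progenitors and the rhombic lip 11 could be measured. The 11 included CNTN2 (TAG1, log2 fold change 4.61), which the study places in early postmitotic granule cells of the mouse. The list thus holds more than progenitor markers. Of the 11, 10 were higher in the IPs (edgeR, adjusted p under 0.05), with log2 fold changes from 1.27 to 7.51. Of the tied genes 29.5% were called higher and 26.7% lower, and of all genes and transcripts tested 2.30% and 1.48%. The 3 vascular and mesenchymal markers measured of 10 were all lower, from -4.17 to -1.46. Of the 4 astroglial and neural stem markers measured of 10, 1 was higher (SOX2, 3.49), 2 were lower (SOX9, -1.81, and TNC, -2.57) and FABP7 had 1.75 without passing. Over the measured genes, the progenitor and rhombic lip markers, CNTN2 included, summed to 1617 to 2185 CPM in each IP against 129.9 CPM in the input. The astroglial and neural stem ones summed to 334 to 348 against 1379 CPM and the vascular and mesenchymal ones to 1054 to 1223 against 4161 CPM. No gene was at 0 in any library. In the IPs, HES6 (873 to 1292 CPM) and MSX1 (312 to 468 CPM) held most of the progenitor and rhombic lip sum. In the input, MSX1 (59.6 CPM) and MEIS2 (43.5 CPM) held most of it. There, TNC (1058 CPM) and SOX9 (306 CPM) held most of the astroglial sum, and COL1A1 (2878 CPM) most of the vascular and mesenchymal one. SOX2 and FABP7 were higher in the IPs, against the direction of their sum. Markers of other cells thus moved with the contrast, the astroglial and neural stem ones in both directions. Their part in the values that follow was not tested.

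Oxidative phosphorylation runs in the inner mitochondrial membrane. Complexes I and II pass electrons to ubiquinone, complex III carries them to cytochrome c, complex IV hands them to oxygen, and complex V, the ATP synthase, uses the resulting proton gradient. Core subunits that carry out the chemistry are surrounded by many small accessory subunits encoded in the nucleus, which stabilise the complexes or help to build them. Dividing neural progenitors are known to rely heavily on glycolysis, and neurons on oxidative phosphorylation.

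The members were mostly genes of small proteins. The coding length, without the stop codon, in the MANE Select transcript of GENCODE was under 600 bases in 34 of the 36 genes. The exceptions were SDHA, the flavoprotein that oxidises succinate in complex II, with 1992 bases, and NDUFV3 with 1419 bases. In NDUFV3 the transcript with most of the RNA has 1035 bases, too few to hold that coding length. SDHA was also the single member that is a catalytic subunit in its own right. By complex, 17 members belonged to complex I, 1 to complex II, 4 to complex III, 8 to complex IV and 6 to complex V. NDUFA4, once counted with complex I, is placed in complex IV here, as is now usual. On GRCh37 (hg19), the build of the quantified transcripts, 7 members lie on chromosome 19. Among them are the genes with the highest IP-to-input ratio, NDUFA7 (chr19:8373652-8386259, minus strand), NDUFA13 (chr19:19626545-19639863, plus strand) and NDUFB7 (chr19:14676890-14682878, minus strand). SDHA lies at chr5:218418-257197 on the plus strand.

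Promoters were compared for motifs of factors known to act on nuclear genes of respiration, since the rule for the members did not use sequence. RefSeq's table of promoters (GRCh38.p14, 250 bases before to 50 bases after the gene start) held 31 of the 36 genes, and motifs were searched on both strands. CCGGAAG, the core bound by GABPA (NRF-2) and other ETS factors, was in 12 of the 31 promoters (38.7%), beside 10.7% of all 27305 promoters and 16.5% of those of 1324 genes tied to transcripts. GCGCANGCG, most of the NRF1 site, was likewise in 12 promoters (38.7%), beside 8.05% of all and 12.9% of the tied genes. AANATGGC, the core of the YY1 site, was in 8 promoters (25.8%), beside 6.82% and 9.52%. AANATGGCG, a longer form that is part of the TISU element, found around the start codon of genes with very short leaders, was in 5 promoters (16.1%), beside 3.37% and 6.72%, and each of its matches is also a YY1 match. At least 1 of the motifs was in 22 of the 31 promoters. A match is a stretch of letters and no measured binding.

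The windows of 30 bases below show motif matches in promoters of the members with the highest ratio, of SDHA and of genes that hold the clearest forms, in GRCh38.p14 coordinates with the motif in capitals and each read 5′ to 3′ on the gene's strand. NDUFA13 and NDUFB7 show the ETS core, NDUFA7, NDUFS6 and UQCR10 the longer YY1 form around an ATG, and NDUFB4 and SDHA the NRF1 site.
NDUFA13 (chr19:19516204-19516233): tccgcccgggaCCGGAAGtgtgggatactg
NDUFB7 (chr19:14572072-14572101): gcctaaatgacCCGGAAGctgtgtctgact
NDUFA7 (chr19:8321342-8321371): tcgcggacggAAGATGGCGtccgccacccg
NDUFS6 (chr5:1801405-1801434): ccagcggcgcAAAATGGCGgcggcgatgac
UQCR10 (chr22:29767386-29767415): actgtgaagaAACATGGCGgccgcgacgtt
NDUFB4 (chr3:120596167-120596196): agagcacttcGCGCATGCGcatatcaccga
SDHA (chr5:218144-218173): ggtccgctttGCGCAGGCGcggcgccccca

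The SDHA promoter held the NRF1 motif in 4 places, whose first bases lie at -166, -117, -68 and -19 from the gene start, and all 4 read GCGCAGGCG. Of the 3 genes with the highest ratio, none held the NRF1 motif in this window. This says only that those letters are not there.

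In the IPs 35 of the 36 subunit genes had more RNA than in the input, by between 1.71-fold (ATP5L) and 2.93-fold (NDUFA7), and SDHA had less, at 0.545 of the input. For each of the 35, all 3 IPs lay above the input, and for SDHA all 3 lay below it. All 3 IPs lay above the input for 28.2% of all genes and transcripts tested and for 51.4% of the tied genes, and below it for 33.4% and 48.6%. By the quasi-likelihood test of edgeR, adjusted after Benjamini and Hochberg across all 43806, 24 members were higher and 0 were lower at an adjusted p under 0.05. Of all genes and transcripts 2.30% were called higher and 1.48% lower, and of the tied genes 29.5% and 26.7%. Since the study's own test of this contrast chose the members, nothing is read from these shares. The median log2 fold change of the members was 1.04, beside 0.81 over the tied genes and 0.10 over all genes and transcripts tested.

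The calls lay close to the threshold, with adjusted p from 0.0274 to 0.101. DESeq2 called 35 members higher and 1 lower (15.1% and 10.5% of all genes and transcripts with an adjusted p), limma-voom called 0, and edgeR called 0 whichever IP library was omitted. The directions and sizes moved little, and 35 members remained above 0 and SDHA below 0 in each of these fits. On the TPM scale the same 35 were higher and SDHA lower, with a median log2 ratio of 0.71. The median over all genes and transcripts was -0.33 there, against 0.10 with TMM scaling, so TPM ratios stand lower throughout.

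**Figure D1:**
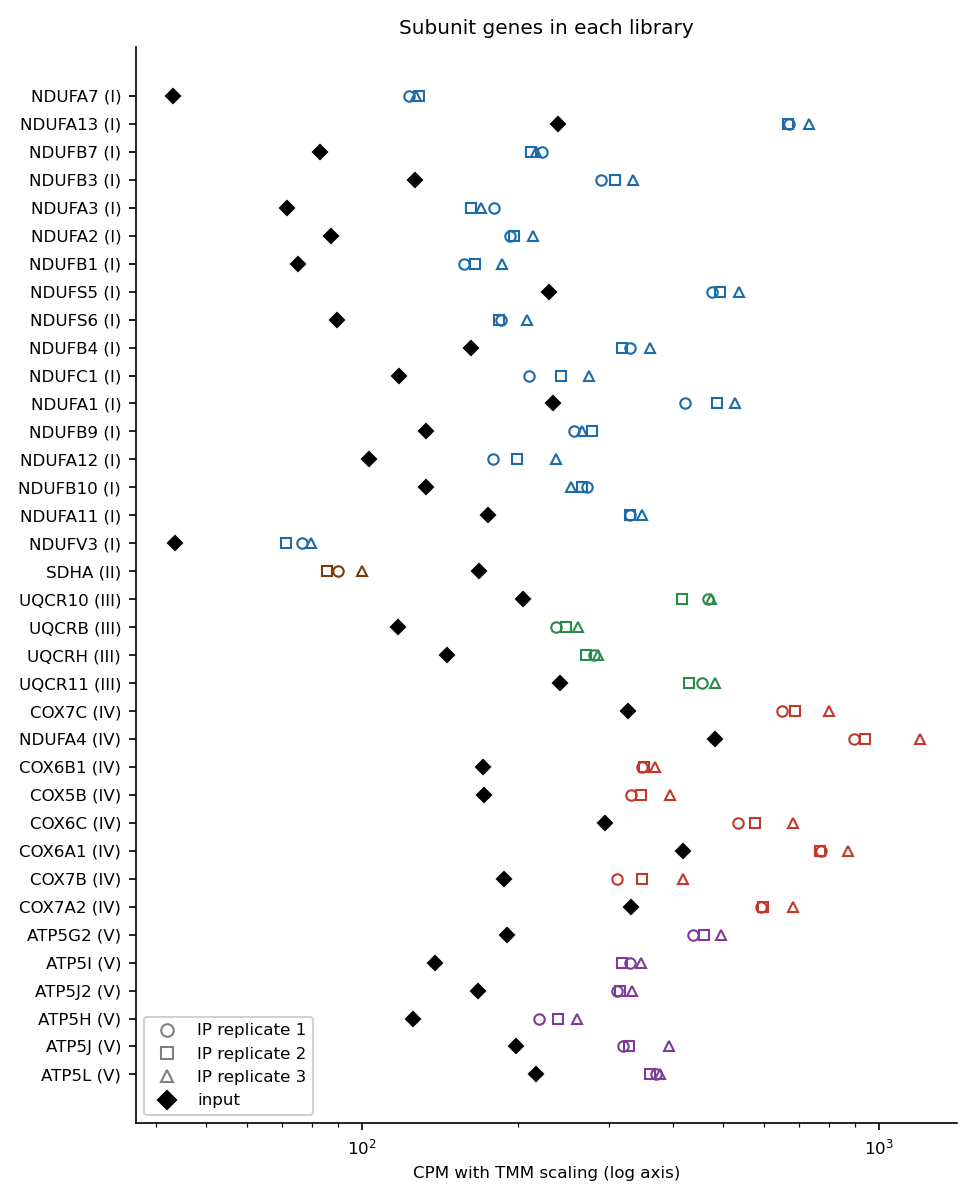
CPM with TMM scaling (log axis) of the 36 subunit genes, in rows by complex (roman numeral) and by fold change. Open symbols are IP replicates 1, 2 and 3, and black diamonds the single input. The input lies left of all 3 IPs in every row except SDHA, where it lies right of them.

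Complex I, the NADH dehydrogenase, had 17 members, all accessory subunits. All 17 lay above the input in each IP, and 13 passed the test. Their median log2 fold change was 1.11, and their levels ran from 90.1 to 2671 TPM in the IP mean. NDUFA7, an accessory subunit of the arm that reaches into the matrix, was at 123, 129 and 127 CPM in IP replicates 1 to 3 and at 43.1 CPM in the input. The IPs lay close together, with a coefficient of variation of 2.32%, and well above the input. The log2 fold change was 1.55 (SE 0.13, adjusted p = 0.0274, edgeR).

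NDUFA13, also known as GRIM-19, was the most abundant complex I member per length. It had 670, 667 and 732 CPM across the IPs, against 240 CPM in the input, which gave a log2 fold change of 1.52 (SE 0.13, adjusted p = 0.0274, edgeR). In TPM this was 2671 ± 53.1 (SD, n = 3) against 1173. NDUFB7, a subunit of the membrane arm on the side of the intermembrane space, was at 223, 212 and 217 CPM against 83.1 CPM, a log2 fold change of 1.39 (SE 0.12, adjusted p = 0.0290, edgeR). In these 3 genes the lowest IP exceeded the input by 2.85-, 2.78- and 2.55-fold, more than the highest IP did in 31 of the other members.

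The rest of complex I lay between log2 fold changes of 0.80 and 1.29. NDUFB3 (1.29), NDUFA3 (1.25), NDUFA2 (1.21), NDUFB1 (1.18), NDUFS5 (1.13), NDUFS6 (1.11), NDUFB4 (1.05), NDUFB9 (1.01), NDUFB10 (0.99) and NDUFA11 (0.94) passed the test. NDUFC1 (1.04), NDUFA1 (1.03) and NDUFA12 (1.00) had values of the same size and did not pass, with adjusted p of 0.0750, 0.0594 and 0.0884 from edgeR. All 3 varied more among the IPs than any complex I member that passed, with coefficients of variation of 13.4%, 11.0% and 14.5%. The test takes its spread from the IPs, so a larger spread there makes passing less likely. NDUFA12, a subunit of the matrix arm, was at 179, 200 and 238 CPM across the IPs, against 103 CPM in the input, so its lowest IP was 1.74 times the input and its highest 2.31 times.

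NDUFV3, an accessory subunit bound to the NADH-oxidising tip, was the least abundant complex I member and had the lowest fold change of the complex. It was at 76.5, 71.2 and 79.9 CPM across the IPs, against 43.6 CPM in the input, for a log2 fold change of 0.80 (SE 0.15, adjusted p = 0.0720, edgeR). The groups did not overlap, but the difference did not pass.

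Complex II was represented by SDHA alone, which had 90.0, 85.5 and 100.0 CPM across the IPs, against 169 CPM in the input. The log2 fold change was -0.88 (SE 0.14), with an adjusted p of 0.0541 from edgeR. It passed with median-ratio scaling, with DESeq2 and with a stricter filter (50 counts or more in 2 libraries). In TPM SDHA was at 57.0 ± 2.28 (SD, n = 3) across the IPs, against 127 in the input, the lowest IP mean among the 36 members. SDHB, SDHC and SDHD were not analysed here, so whether the rest of complex II went with SDHA is unknown from these values.

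All 4 complex III members rose in the IPs: UQCR10 (1.14), UQCRB (1.08), UQCRH (0.94) and UQCR11 (0.92 on the log2 scale), of which UQCR11 did not pass without the filter on low counts. Each encodes a small accessory subunit of the cytochrome bc1 complex. UQCRH, the hinge protein near cytochrome c1, was the most abundant per length, at 281, 271 and 286 CPM across the IPs, against 146 CPM in the input, which in TPM was 1125 ± 44.7 (SD, n = 3) against 741. UQCRB was the least abundant, at 61.7 ± 0.450 TPM (SD, n = 3) against 36.7, and had 237, 248 and 261 CPM across the IPs, against 117 CPM in the input. Its reads were assigned almost wholly to a transcript of 4819 bases although its coding length is 333 bases, and a TPM value falls as the annotated length grows. The low TPM of UQCRB therefore holds for that annotation.

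Complex IV, cytochrome c oxidase, had 8 members with log2 fold changes between 0.91 and 1.13, of which COX6B1 (1.06), COX5B (1.05) and COX6A1 (0.95) passed. COX5B did not pass with median-ratio scaling, nor COX5B and COX6A1 without the filter on low counts. COX7C was the most abundant subunit gene of all per length, at 5115 ± 339 TPM (SD, n = 3) across the IPs, against 2961 TPM in the input. It had 649, 689 and 802 CPM against 327 CPM, and its log2 fold change of 1.13 (SE 0.17) just missed the threshold (adjusted p = 0.0513, edgeR). COX7A2 (0.91, adjusted p = 0.0530, edgeR) and COX6C (1.02, adjusted p = 0.0692, edgeR) did not pass either.

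The complex IV genes also varied most among the IPs, with a median coefficient of variation of 10.1%, beside 5.77% in complex I, 5.38% in complex III and 5.37% in complex V. NDUFA4 had the highest value of all members, 16.3%, from 893, 938 and 1199 CPM, with 482 CPM in the input (log2 fold change 1.07, SE 0.22, adjusted p = 0.0862, edgeR). Next to it stood COX7B with 14.9%, from 312, 349 and 417 CPM, with 188 CPM in the input (log2 fold change 0.93, SE 0.21, adjusted p = 0.101, edgeR). In both, IP replicate 3 stood above the other IPs. NDUFA4 was at once the most abundant member in CPM and the least abundant complex IV member in TPM (631 ± 74.8, SD, n = 3, against 382), as its transcript has 2058 bases.

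All 6 complex V members lay above the input in each IP, and 4 passed the test. ATP5G2, 1 of the genes for the c subunit that forms the rotating ring, had a log2 fold change of 1.28, and ATP5I, subunit e of the membrane part, had 1.26. ATP5I was the most abundant complex V gene per length, at 330, 319 and 347 CPM across the IPs, against 139 CPM in the input (3581 ± 113.3 TPM, SD, n = 3, against 1880). Its leading transcript has 365 bases. The effective length rests on a fragment length, which single-end reads do not give. For transcripts this short the TPM is therefore least certain, also for COX7C, whose transcript has 407 bases. ATP5J2, subunit f, had a log2 fold change of 0.93.

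ATP5L, subunit g, had the lowest positive fold change of the 36 genes and passed, though not with median-ratio scaling or without the filter on low counts. It was at 371, 362 and 377 CPM across the IPs, against 217 CPM in the input, for a log2 fold change of 0.77 (SE 0.11, adjusted p = 0.0466, edgeR). The IPs differed by a coefficient of variation of 2.12%, the smallest among the members. The peripheral stalk genes ATP5H, for subunit d (0.93, adjusted p = 0.0566, edgeR), and ATP5J, for F6 (0.81, adjusted p = 0.0914, edgeR), had values of about this size and did not pass.

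**Figure D2:**
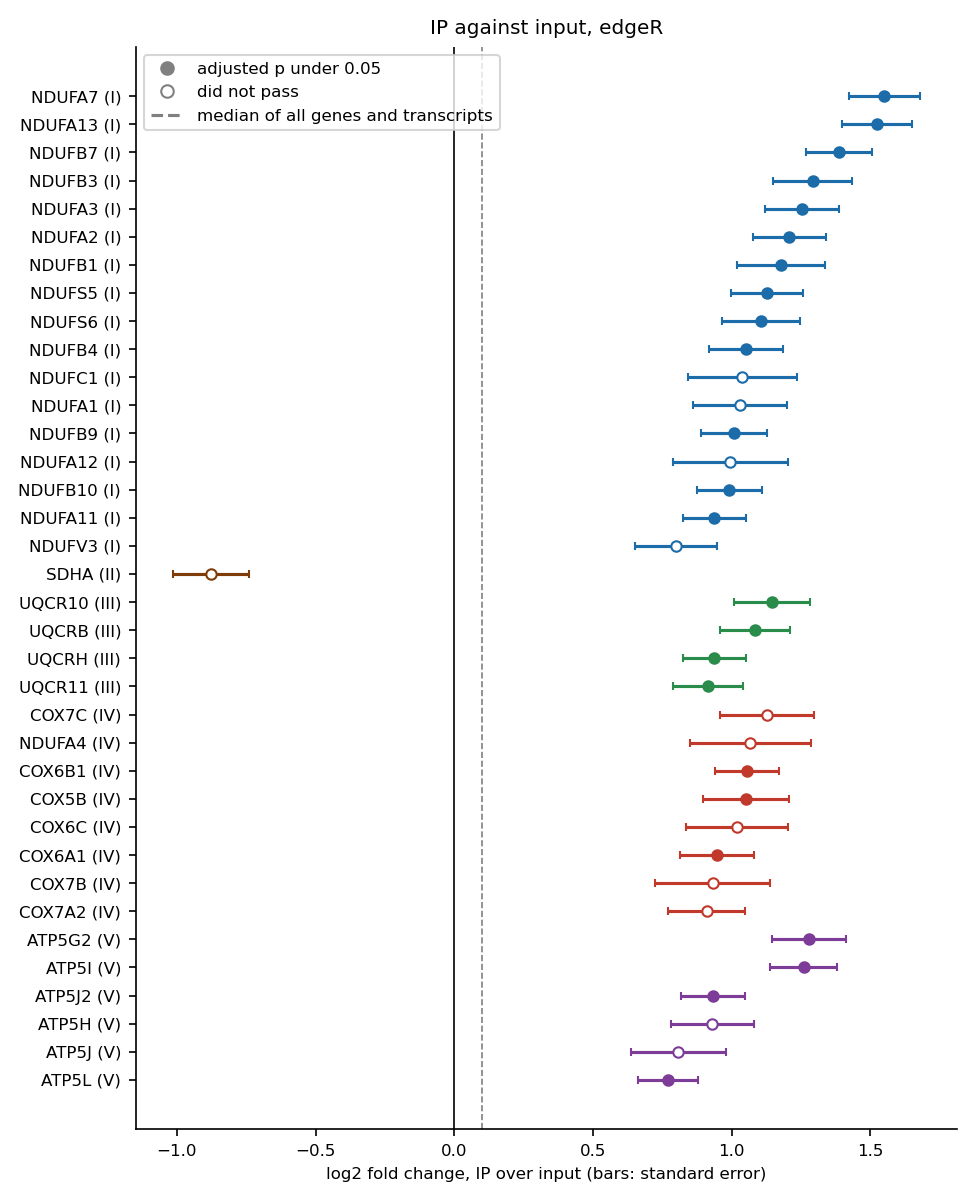
Each subunit gene's log2 fold change of IP over input from edgeR, with standard errors as bars, filled where the adjusted p was under 0.05 and open where not. The dashed line is the median of all genes and transcripts (0.10); all members except SDHA lie between 0.77 and 1.55.

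Members that passed the test and members that did not differed in their spread across the IPs. Since the test takes its spread from the IPs, this restates the test in part and is no separate result. The 24 that passed had coefficients of variation of 2.12% to 9.16% (median 5.29%), and the 12 that did not had 5.77% to 16.3% (median 11.2%). Over all members the median was 6.54%, beside 7.83% for 956 tied genes and 9.28% for 4019 genes and transcripts with an IP mean above 50 CPM.

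Which IP was highest depended on the scale. In CPM, IP replicate 3 was the highest of the IPs for 31 of the 36 members, replicate 1 for 3 and replicate 2 for 2. Over all genes and transcripts tested, replicate 3 was highest in 36.1%. In TPM, replicate 3 was highest for 21 of the 36, among them none of the complex III genes, and in 30.2% of all genes and transcripts. Summed, the members made up 4.31%, 4.28% and 4.49% of all TPM in IP replicates 1, 2 and 3 and 2.59% in the input, and 1.30%, 1.28% and 1.40% of all estimated counts against 0.634%. The 3 IPs thus lay close together beside their distance from the input.

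Transcript length moved with the fold change over the whole data set. Among genes and transcripts with at least 50 CPM in the IP mean or the input, members left out, the median log2 fold change was 1.02 for 47 with an effective length under 250 bases, 0.92 for 142 from 250 to 500 bases and 0.71 for 563 from 500 to 1000 bases. It was 0.25 for 1341 from 1000 to 2000 bases, -0.47 for 1779 from 2000 to 4000 bases and -0.65 for 1122 of 4000 bases or more. The effective length is the length left for a fragment to start in. Of the subunit genes, 31 had one under 1000 bases.

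The 7 members under 250 bases had a median of 1.13, the 18 from 250 to 500 bases one of 1.04 and the 6 from 500 to 1000 bases one of 1.08. Other genes with a call by the study and a link to transcripts, selected as the members were, had medians of 1.10 (37 genes), 1.07 (83 genes) and 1.03 (183 genes) in these classes. Under 1000 bases the members thus lay close to these genes, below them from 250 to 500 bases and above them in the other classes. Of all other genes and transcripts in these classes 91.5%, 96.5% and 91.3% were above 0. From 1000 to 2000 bases the 4 members UQCR11, ATP5L, NDUFA4 and SDHA had a median of 0.84, and 68.0% of the others were above 0. SDHA, with an effective length of 1826 bases, was below 0, whereas NDUFA4, with 1809 bases, had 1.07. UQCRB, with more than 4000 bases, had 1.08, in a class where 24.6% of the others were above 0. Its length is that of the annotated transcript, while its coding length is 333 bases, so its class holds for that annotation. A correction for the average transcript length of each library, which accounts for shifts between transcripts of a gene and not for length between genes, left 24 members called. The part of transcript length in the difference between IP and input was not tested.

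**Figure D3:**
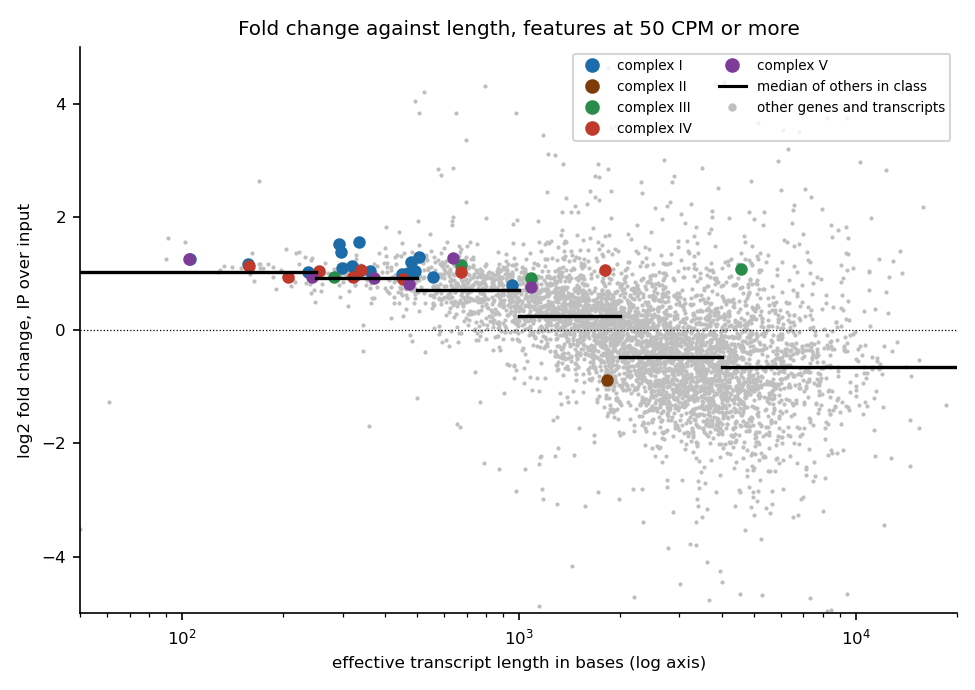
Log2 fold change of IP over input against effective transcript length (log axis) for genes and transcripts with at least 50 CPM in the IP mean or the input. Grey points are others, coloured points the subunit genes by complex, and black lines the median of the others in each length class, which fall from 1.02 under 250 bases to -0.65 at 4000 bases or more; others beyond a log2 fold change of 5 in either direction lie outside the axes.

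Within a gene, reads were split over several transcripts in 24 of the 36 members, and Salmon's split is an estimate. The leading transcript was the same in IPs and input in all 36. In 20 of the 24 the share of no transcript differed by as much as 3 percentage points between the IP mean and the input. The remaining genes were NDUFC1, NDUFV3, SDHA and ATP5J2, chosen for this difference.

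In NDUFV3, a transcript of 2130 bases took 1.77%, 3.09% and 2.59% of the gene's TPM across the IPs, against 17.1% in the input. In TPM it was at 1.68, 2.60 and 2.37 across the IPs, against 9.87 in the input, which makes it lower in the IPs. The leading transcript, of 1035 bases, was higher, at 83.8, 73.3 and 81.4 TPM against 43.8. The fold change of NDUFV3 as a gene thus combined transcripts that went opposite ways. NDUFV3 is known to give a short and a long protein by use of an additional exon. The leading transcript, of 1035 bases, is too short to hold the MANE Select coding length of 1419 bases. Which of the longer transcripts encodes the long protein was not determined here.

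In NDUFC1, transcripts of 721 and 725 bases exchanged their shares between IPs. The shorter took 50.9% and 47.6% in IP replicates 1 and 2, but 20.0% in replicate 3 and 19.3% in the input, while the longer took 42.8% and 45.9%, 74.4% and 73.1%. Replicate 3 resembled the input here and not the other IPs. In SDHA a transcript of 1410 bases took 28.5%, 35.6% and 31.8% across the IPs, against 24.8% in the input. In ATP5J2, which encodes subunit f, the transcript of 493 bases took 67.5%, 67.8% and 69.7% across the IPs, against 63.2% in the input.

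**Figure D4:**
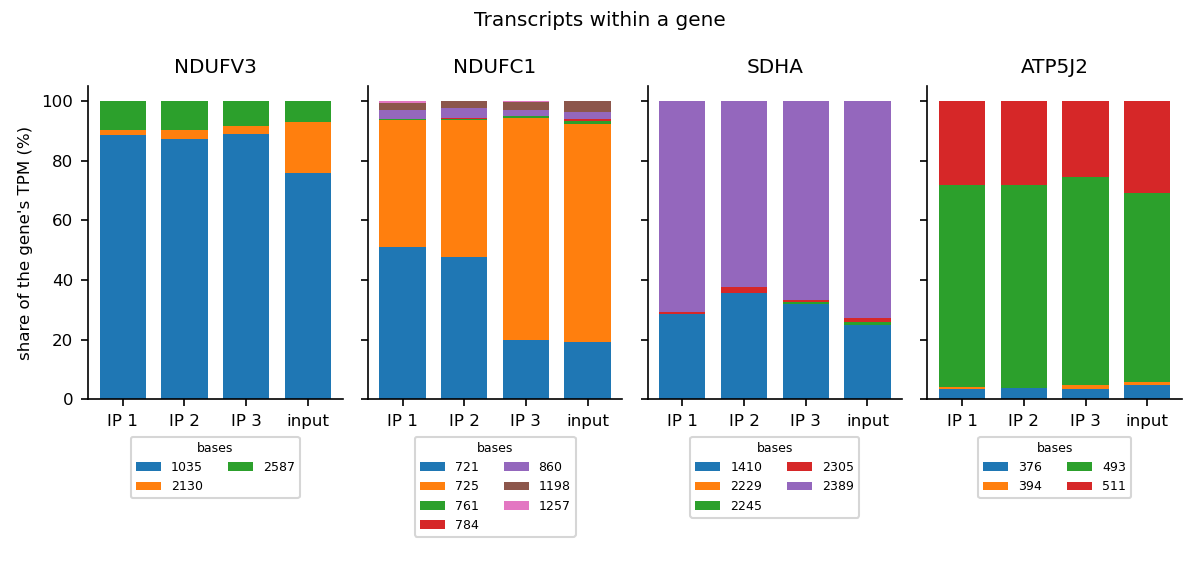
Share of a gene's TPM (%) in each of its transcripts, named by length in bases, for the 4 subunit genes with the greatest difference between IPs and input. The 2130-base transcript of NDUFV3 takes 17.1% in the input and at most 3.09% in the IPs, and in NDUFC1 IP replicate 3 looks like the input.

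Pseudogene copies are common for these genes, and whether they are processed was not determined here. GENCODE listed at least 1 pseudogene named after 26 of the 36 members, 17 for COX6C, 12 for NDUFB4 and 8 for ATP5L. SDHA, the single member lower in the IPs, had 4. Where a copy shares sequence, the authors' quantification could split reads between it and the gene, so values of those members are less certain. The 10 without such a copy included NDUFA7, NDUFA13 and NDUFB7.

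Genes of related function were read from lists of mitochondrial proteins and of the vacuolar ATPase, and their members too were all called by the study. Of 42 such genes tied to transcripts, 26 were called higher and 2 lower in the IPs (edgeR, adjusted p under 0.05). Of all tied genes 29.5% and 26.7% were so called, and of all genes and transcripts tested 2.30% and 1.48%. Since the study's own test chose the 42, nothing is read from these counts. All 10 assembly factors and associated proteins were above 0, with a median log2 fold change of 1.11, and 6 passed. PET100, which helps to assemble complex IV, had 1.63, and at the lower end USMG5, a small protein of the ATP synthase, had 0.86 and COA1, a complex IV factor, had 0.76, neither of which passed. CHCHD2, a protein of the intermembrane space, stood apart with 219, 222 and 260 CPM across the IPs, against 4 reads (0.0988 CPM) in the input. That gap rests on the single input, and whether this library matches the cultures of the IPs was not tested.

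All 9 genes of import and carriers rose, with a median log2 fold change of 1.17. TIMM17B, of the inner membrane translocase, had 1.56, and CHCHD1, which is also a protein of the mitochondrial ribosome, had 1.45. TIMM13 (0.96) and TIMM8B (0.93), small chaperones of the intermembrane space, had the lowest values. All 14 genes of the mitochondrial ribosome were above 0, with a median log2 fold change of 0.97, and 8 passed. MRPL53 (1.38) and MRPL33 (1.18) led, while MRPL52 had 0.85 and passed and MRPS6 had 0.84 and did not. These 3 lists and the subunit genes thus had medians within 0.20 of each other on the log2 scale. Tied genes outside the members had medians of 1.10, 1.07 and 1.03 in the 3 length classes under 1000 bases. Values of this size were thus common among short tied genes.

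Of 17 listed enzymes of the tricarboxylic acid cycle, 2 had values, and neither was tested against the other lists. OGDH, the E1 subunit of oxoglutarate dehydrogenase (-1.51), fell, and DLD, the shared E3 subunit (-0.97, adjusted p = 0.0758, edgeR), did not pass. SDHA, which is an enzyme of this cycle as well as of complex II, had -0.88. The effective lengths of OGDH and DLD were 3695 and 2930 bases. In the list of mitochondrial gene expression, PPRC1, a coactivator related to PGC-1, fell by 1.97 on the log2 scale (effective length 4677 bases), and SLIRP, which binds mitochondrial mRNA, had 0.99 (159 bases) and did not pass.

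The vacuolar ATPase, a proton pump of lysosomes and vesicles, is no part of respiration. Of its 5 genes 4 were above 0 and 3 passed, among them ATP6V1G2 (1.35), the neuronal form of the G subunit, and ATP6V1F (0.99). ATP6V1G1, the common G form, had 0.76 and did not pass, and ATP6V0A2, a large membrane subunit with an effective length of 5315 bases, had -1.40 and did not pass (adjusted p = 0.183, edgeR).

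**Figure D5:**
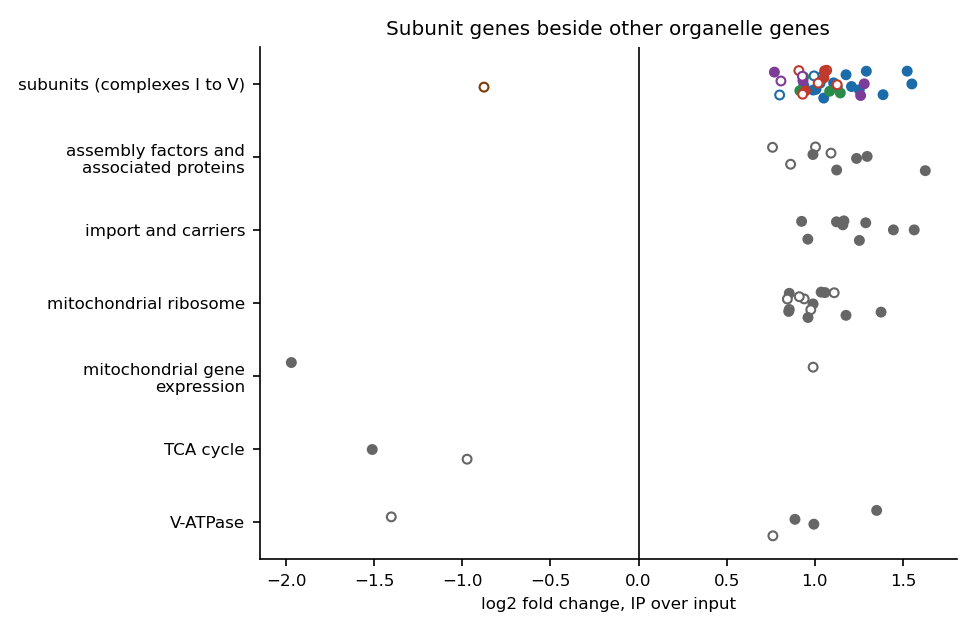
Subunit genes by log2 fold change of IP over input (coloured by complex as in the other plots) and for 6 lists of related genes (grey), filled where the adjusted p from edgeR was under 0.05. Points are spread vertically for clarity and CHCHD2 (11.2) is off the axis; the 2 tricarboxylic acid cycle genes lie below 0 with SDHA, and most others lie near 1.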

How the data were processed

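TRAP-seq libraries of ATOH1-EGFP-L10a cells at day in vitro 28 (3 IPs, 1 input) were used. Per the labels and the methods of the study, the authors made SMART-Seq v4 cDNA and Nextera XT libraries, read single ends and, with Salmon 0.8.2 (submitters' processing notes), obtained the deposited estimated counts and TPM for 69548 transcripts of hg19. Gene values from tximport and DESeq2 1.20.0 were not used as results. Lengths in the deposited files served for length classes.

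The files name transcripts only. The symbols came from a join: runs of up to 20 transcripts, adjacent in the files, whose summed mean count (within 2%) and log2 fold change (within 1e-05) equalled those of a gene in the study's table, of which 1998 of 19968 genes could be read. The join thus used the fold change. Of 1689 genes matched, 13 ambiguous ones and 4 sharing a transcript were left out. File order and genome order of neighbouring joined genes ran together on both sides for 33 members and on 1 side for the rest. A 10 times wider tolerance gave the same 36 members.

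Counts of joined genes were summed, other transcripts kept singly and counts rounded. Fits were made with edgeR 4.0.16 (R 4.3.3) under TMM scaling, filterByExpr at a minimum count of 10, the quasi-likelihood test and Benjamini-Hochberg adjustment (threshold 0.05), and were tested on simulated data. With 1 input, the spread within groups is estimated from the IPs alone. The input is assumed to vary like them, and the p-values hold nothing on its own variation. Intervals on counts would cover counting error only. Alternatives were DESeq2 1.42.0, limma-voom (limma 3.58.1), other scalings and filters, a length offset, and leaving out each IP. Members named with a value in every library are those with the 3 largest and 3 smallest fold changes, the most and least abundant of each complex and the 3 most variable among the IPs. Of other lists up to 4 genes were named, the 2 largest and the 2 smallest. The 4 genes given with transcript shares were chosen after their values were seen, and the members and lists were chosen with earlier results of these data known. A gene of the related lists is not reported here. The NRF1 and TISU motifs were shortened after longer forms of them had been searched, which gave lower shares both in the members and in all promoters.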

Additional observations from a re-analysis of the deposited data

How the results depend on the processing

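All 36 members kept their direction under each alternative other than the labels' assignment of the input, and a wider join tolerance gave the same 36. With the labels' assignment, which pairs the input name with the file of an IP, the members' median log2 fold change was -0.19, no member and no gene or transcript was called (0 higher, 0 lower), and the 26 and 2 calls in related lists became 0. SDHA was at 0.39 then, and these members fell below 0: NDUFA3 (-0.42), NDUFB7 (-0.38), UQCR10 (-0.36), NDUFB10 (-0.32), NDUFA7 (-0.30), ATP5I (-0.30), NDUFA13 (-0.29), UQCRH (-0.27), UQCR11 (-0.24), NDUFV3 (-0.24), NDUFB4 (-0.23), COX6B1 (-0.23), ATP5L (-0.22), NDUFA2 (-0.22), NDUFA11 (-0.21), NDUFS6 (-0.21), ATP5J2 (-0.20), ATP5G2 (-0.19), NDUFB9 (-0.19), UQCRB (-0.18), NDUFS5 (-0.18), NDUFB3 (-0.17), COX6A1 (-0.17), NDUFB1 (-0.15), COX7A2 (-0.14), COX5B (-0.12), COX7C (-0.10), ATP5H (-0.0751), ATP5J (-0.0641), COX6C (-0.0479), NDUFA4 (-0.0328), NDUFA1 (-0.0244).

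Leaving out 1 IP gave 0 calls higher and 0 lower over all genes and transcripts, the related lists and the members, whose median was between 0.98 and 1.10. limma-voom gave 0 calls everywhere. At an unadjusted p under 0.05, edgeR with all libraries had 4719 genes and transcripts higher and 3668 lower. SDHA was called lower (1 member) with median-ratio scaling, with DESeq2 and with at least 50 counts in 2 libraries. DESeq2 called 5756 genes and transcripts higher and 4027 lower, and 4 related genes lower. At least 50 counts in 2 libraries gave 1865 and 1146 in place of 1007 and 647, with fewer features tested. Elsewhere the cause was not tested. Of the 24 members called higher, ATP5L and COX5B lost the call with median-ratio scaling (22 left), and these, COX6A1 and UQCR11 without the filter on low counts (20 left). On the TPM scale the median log2 ratio of all genes and transcripts was -0.33 in place of 0.10, and 35 members stayed above 0. No paired analysis was possible because there is 1 input library.

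The limits are those of 3 libraries against 1. The spread of the input is unknown, and its match to the cultures of the IPs was not tested. The readable table held only called genes, and transcript length and markers of other cells moved with the contrast. Reads of genes with near-identical copies are less certain.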
